A study of Homo sapiens with 16 samples.

Results

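The guanylate-binding protein genes GBP1, GBP2, GBP3, GBP4 and GBP5 and the gene UBD were followed in human multiple myeloma cells given inhibitors of histone methylation. These 6 genes are known targets of interferon gamma, and they were chosen with their levels on these arrays already known, so their own levels and differences are given below as a description, without a test. Their probes were found by gene name on the array. The 6 genes are among 32080 gene symbols on it, and they have 7 probes among 50599, since GBP3 has 2 probes and every other gene has 1.

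Both lines, RPMI-8226 and MM.1S, are established lines of malignant plasma cells from human multiple myeloma. Cells of each were given the solvent DMSO, GSK126 (1 µM), UNC0638 (1 µM) or GSK126+UNC0638 (1 µM each) for 6 days. GSK126 inhibits EZH2, the methyltransferase of lysine 27 of histone H3, and UNC0638 inhibits G9a (EHMT2), a methyltransferase of lysine 9 of histone H3. Each of the 8 groups holds 2 biological replicates, each hybridised to its own 1-colour array, which makes 16 arrays. The 8 arrays of a line lay on 1 slide, so the line and the slide cannot be told apart.

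Guanylate-binding proteins are large GTPases of the dynamin superfamily that gather on pathogen-containing vacuoles and on bacteria and take part in cell-autonomous defence and in inflammasome signalling. UBD encodes FAT10, a ubiquitin-like modifier that is attached to proteins and directs them to the proteasome. In the textbook pathway interferon gamma binds its receptor IFNGR1-IFNGR2, the kinases JAK1 and JAK2 are activated, and the signal reaches promoters with GAS elements. A later wave of transcription runs through IRF1, and complexes that hold IRF9 bind ISRE elements, which also serve the type I interferons.

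The promoters are shown because they are where such elements would be read. RefSeq windows on GRCh38.p14, from 250 bases before to 50 bases after the annotated gene start, were matched for 4 of the 6 genes, GBP1, GBP3, GBP4 and UBD. They are written 5′ to 3′ in the direction of the gene, which is the minus strand for all 4, and capitals mark a match to an ISRE-like string or to a GAS-like string. The GBP1 window is chr1:89065159-89065458, the GBP3 window is chr1:89022817-89023116, the GBP4 window is chr1:89198893-89199192 and the UBD window is chr6:29559683-29559982.
GBP1: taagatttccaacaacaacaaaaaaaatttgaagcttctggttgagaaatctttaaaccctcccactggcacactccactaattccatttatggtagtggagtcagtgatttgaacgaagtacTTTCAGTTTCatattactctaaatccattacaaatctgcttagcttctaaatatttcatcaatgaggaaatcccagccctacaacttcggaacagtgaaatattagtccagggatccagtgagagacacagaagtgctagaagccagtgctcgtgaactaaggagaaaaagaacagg
GBP3: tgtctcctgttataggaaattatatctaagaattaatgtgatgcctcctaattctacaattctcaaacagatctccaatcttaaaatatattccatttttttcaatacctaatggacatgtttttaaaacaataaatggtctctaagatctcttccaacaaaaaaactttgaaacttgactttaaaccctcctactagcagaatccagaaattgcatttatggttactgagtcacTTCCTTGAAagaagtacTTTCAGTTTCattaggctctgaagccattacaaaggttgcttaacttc
GBP4: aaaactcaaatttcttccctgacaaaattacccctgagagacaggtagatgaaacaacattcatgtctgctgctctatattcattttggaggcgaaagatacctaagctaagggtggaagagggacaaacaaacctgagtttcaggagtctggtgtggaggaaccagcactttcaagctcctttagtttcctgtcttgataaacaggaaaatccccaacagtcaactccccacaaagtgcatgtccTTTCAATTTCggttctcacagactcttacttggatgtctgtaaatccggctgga
UBD: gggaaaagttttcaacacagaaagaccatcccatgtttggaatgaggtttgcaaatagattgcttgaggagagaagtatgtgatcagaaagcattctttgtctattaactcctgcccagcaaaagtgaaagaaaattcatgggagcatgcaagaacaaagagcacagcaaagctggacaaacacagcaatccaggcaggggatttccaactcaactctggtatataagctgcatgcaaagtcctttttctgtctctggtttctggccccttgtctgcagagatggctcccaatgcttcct

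The ISRE-like string searched was GAAA, any 2 bases and GAAA again, and the GAS-like string was TTCNNNGAA, on both strands. The ISRE-like string was found in 1255 of 35116 windows of this length (3.57%) and the GAS-like string in 2689 (7.66%). GBP1, GBP3 and GBP4 each held 1 ISRE-like match on the opposite strand, which therefore reads in the sequences above as TTTCAGTTTC, TTTCAGTTTC and TTTCAATTTC. The match lay 127 to 118 bases before the start in GBP1 and at bases 3 to 12 after it in GBP3. In GBP4 it ran from 4 bases before the start to base 6. GBP3 also held the only GAS-like match among the 4, TTCCTTGAA, 15 to 7 bases before the start, and no matches overlapped. The UBD window held neither string, which says only that these letters are not in this window. The longest run of bases shared by any pair of the 4 windows was gaagtactttcagtttcat, 19 bases, between GBP1 and GBP3, and it contains the ISRE-like match of both. Other pairs shared runs of 8 to 10 bases.

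**Figure D1:**
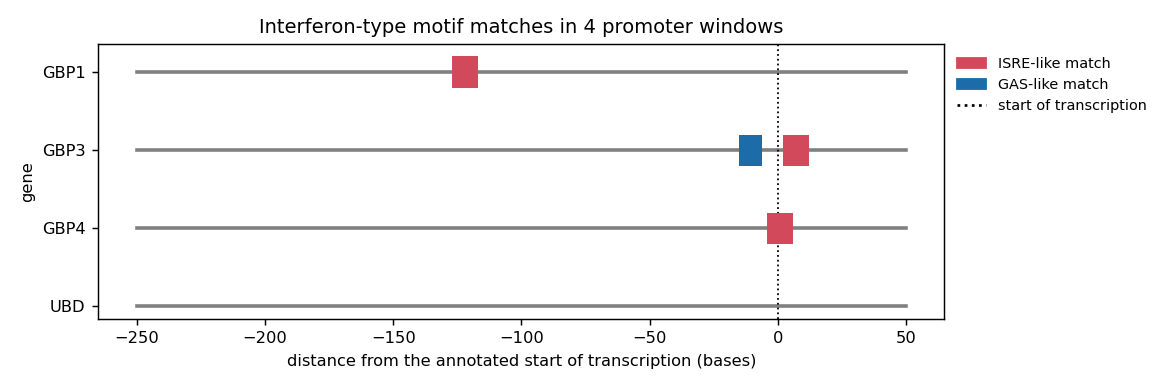
Positions of the ISRE-like and GAS-like matches in the RefSeq promoter windows of GBP1, GBP3, GBP4 and UBD, by distance in bases from the annotated gene start. The GBP3 and GBP4 ISRE-like matches lie at the start, the GBP1 match lies 127 to 118 bases before it, and the UBD window has no match.

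The guanylate-binding protein genes form a cluster on chromosome 1. On GRCh38.p14 the 5 genes span chr1:89006680-89272860, which is 266181 bases, in the order GBP3, GBP1, GBP2, GBP4 and GBP5. GBP7 lies between GBP2 and GBP4, and GBP6 and the pseudogene GBP1P1 lie beyond GBP5. UBD lies apart, at chr6:29555515-29559732. Each of the 7 probes is 60 bases long. Because members of one family can share sequence, 3 probes that bear on how the family was read are shown, with their positions on GRCh37, the build of the array annotation, all on the minus strand. The GBP2 probe maps to chr1:89575896-89578160 and spans 2265 bases of the genome, more than its own length. The GBP3 probe A_21_P0010536 maps to chr1:89476589-89476648 and is the second reading of GBP3, and the GBP5 probe at chr1:89726387-89726446 belongs to the gene that was hardly detected.
GBP2 probe A_23_P85693: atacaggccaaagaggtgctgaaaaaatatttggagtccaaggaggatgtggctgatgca
GBP3 probe A_21_P0010536: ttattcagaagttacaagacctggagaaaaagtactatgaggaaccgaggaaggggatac
GBP5 probe A_23_P74290: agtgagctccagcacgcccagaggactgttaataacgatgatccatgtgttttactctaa
No member probe shared a run of 20 bases with a probe of another gene on the array. Whether a member probe also binds the transcript of another family member was not tested, since only probe sequences were compared.

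Levels are given as the intensity of the probe in percent of the 75th percentile of all spots on its array. They compare samples for 1 probe, and they do not compare probes. The scanner software marks each spot as well above background or not, and the lowest signal among probes so marked was between 3.23% and 6.06% of the 75th percentile on the 16 arrays. A difference is that of the mean log2 levels of 2 groups with the standard error (SE) of the limma fit over the 8 arrays of the line, with n = 2 arrays per group. This fit ignores the replicate number in both lines, for the SEs and for the calls. Where neither array of a group read the probe well above background, the fold is a bound, written as at least N-fold, taken against the higher of that lowest signal and the probe's own value. As these are bulk samples, more cells that express a gene and more RNA per cell cannot be told apart. The comparisons within a line share the same 2 DMSO arrays.

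The share of spots well above background was 46.5% to 52.8% per array, and replicate arrays correlated with r between 0.985 and 0.995 across probes. The plasma cell identity of both lines was visible in their markers, 8 of 8 of which (SDC1, CD38, TNFRSF17, XBP1, IRF4, PRDM1, MZB1 and SLAMF7) were well above background on every array. With the combination 3 of them (SDC1, IRF4 and TNFRSF17) fell and 1 rose in RPMI-8226, and 8 of 8 fell in MM.1S. The one that rose was SLAMF7, at 11.6% and 24.6% with DMSO and 708% and 358% with both (limma, adjusted p = 0.00138). Over all genes with 1 probe each, 4.71% were lower and 8.27% higher with the combination in RPMI-8226, and 32.2% were lower in MM.1S. These counts come from fits that ignore the replicate number. CD38, not counted in RPMI-8226, was at 807% and 1650% with DMSO and at 299% and 800% with both, lower for each replicate number. A second MZB1 probe, A_33_P3351290, was at 370% and 326% with DMSO and 397% and 430% with both in MM.1S. Markers of other cell types stood at different levels between the RPMI-8226 groups. The summed level of the T cell markers CD3D, CD3E and CD3G was 26.3% to 35.1% with DMSO, 77.8% to 141% with GSK126, 347% to 429% with UNC0638 and 1152% to 1344% with both. The sum of the 2 myeloid markers used, CD14 and CSF1R, was 52.6% to 91.9%, 335% to 563%, 42.4% to 80.1% and 359% to 483% in the same order. The B cell marker MS4A1 was at 1.30% and 1.38% with DMSO, not well above background, and at 118% and 56.9% with both. The sum of the fibroblast markers COL1A1, COL1A2 and DCN was 47.1% to 81.5% with DMSO and 81.7% to 209% with both. In MM.1S the T cell sum was 10.2% to 15.7% with DMSO and 31.1% to 31.7% with both, the myeloid sum 12.1% to 15.9% over all groups, and the fibroblast sum 2.39% to 2.60% with DMSO and 6.15% to 8.42% with both. The other 2 fibroblast markers, COL1A1 and COL1A2, were well above background on 0 of the 8 MM.1S arrays, so DCN was the only one tested there. CD3D differed from DMSO by 0.13 with both (adjusted p = 0.693), and CD3G was not tested. CD3E was at 3.99% and 2.99% with DMSO and 17.7% and 18.5% with both (limma, adjusted p = 0.00081). MS4A1 was at 0.934% and 0.944% with DMSO and at 8.27% on the lower array of the combination (adjusted p = 0.000353), and DCN was at 0.711% and 0.792% with DMSO and 4.22% and 4.39% with both (adjusted p = 9.54e-05). Of CD3E, MS4A1 and DCN none was well above background with DMSO, and all were so on both arrays of the combination. CD3E and MS4A1 also passed with UNC0638 alone (adjusted p = 0.0038 and 0.00818) and DCN with GSK126 alone (adjusted p = 0.00267). MS4A1 was well above background on only 2 of the 8 MM.1S arrays, those of the combination. Its test of UNC0638 therefore compares 2 groups at the background. DCN was so on 3 of the 8 arrays, so not on both GSK126 arrays. Both probes were kept in MM.1S only through the combination group. The part of such markers in the members' values was not tested.

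UBD stood at the background with DMSO and highest with the combination in both lines. In RPMI-8226 it was at 1.16% and 1.21% with DMSO and at 2.76% and 1.48% with UNC0638, not well above background on these 4 arrays. It was at 9.94% and 8.85% with GSK126 and at 108% and 93.5% with GSK126+UNC0638. The 2 arrays of the combined treatment stood above all other arrays of the line, and those of GSK126 stood above DMSO and UNC0638. In MM.1S UBD was at 2.96% and 0.797% with DMSO, again not well above background, at 6.35% and 5.99% with GSK126, at 30.1% and 34.9% with UNC0638 and at 115% and 122% with both. Here the 4 groups did not overlap and stood in the order DMSO, GSK126, UNC0638 and both.

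The UBD difference from DMSO after the combined treatment was 6.40 on the log2 scale in RPMI-8226 (SE 0.28, at least 21.1-fold higher) and 6.27 in MM.1S (SE 0.55, at least 32.6-fold higher). With GSK126 alone it was 2.99 in RPMI-8226 (SE 0.28, at least 1.97-fold higher) and 2.01 in MM.1S (SE 0.55, at least 1.70-fold higher). With UNC0638 alone in MM.1S the difference was 4.40 (SE 0.55, at least 8.95-fold higher), whereas in RPMI-8226 no array of either group was well above background and no fold is given. The combined treatment exceeded GSK126 by 10.7-fold and UNC0638 by at least 21.3-fold in RPMI-8226. In MM.1S it exceeded GSK126 by 19.2-fold and UNC0638 by 3.64-fold. The low values weigh on these log2 sizes. With normexp background correction, which adds an offset to every spot, the difference after the combined treatment was 2.71 in RPMI-8226 and 3.19 in MM.1S, and after GSK126 alone in RPMI-8226 it was 0.65. In MM.1S the DMSO arrays also move them, to 7.21 without replicate 1 and 5.32 without replicate 2 for the combination, 2.95 and 1.06 for GSK126, and 5.35 and 3.46 for UNC0638.

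GBP1, the best studied of these GTPases, was nearly undetected in one line and present throughout in the other. In RPMI-8226 it was at 0.962% and 1.62% with DMSO, 4.96% and 2.54% with GSK126 and 0.992% and 1.74% with UNC0638, not well above background on any of these arrays. With both inhibitors it was at 8.04% and 10.2%, above every other array of the line. The bound on this difference is at least 1.90-fold over DMSO, at least 1.64-fold over GSK126 and at least 1.92-fold over UNC0638. In MM.1S GBP1 was at 27.9% and 23.2% with DMSO, 54.2% and 44.0% with GSK126, 57.6% and 58.6% with UNC0638 and 51.2% and 42.5% with both. The 3 treated groups lay above DMSO, and GSK126 overlapped the combined treatment. The differences from DMSO were 0.94, 1.19 and 0.87 on the log2 scale (SE 0.15 each), that is 1.92-fold, 2.28-fold and 1.83-fold higher. The combined treatment in MM.1S differed from GSK126 by -0.07 and from UNC0638 by -0.32 (SE 0.15 each).

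GBP2 showed the opposite split of the lines, since it was read on all 8 RPMI-8226 arrays and on no MM.1S array. In RPMI-8226 it was at 47.0% and 24.9% with DMSO, 130% and 101% with GSK126, 31.2% and 20.8% with UNC0638 and 115% and 81.4% with both. All GSK126-containing arrays lay above the other 4. The difference from DMSO was 1.74 with GSK126 (3.35-fold) and -0.42 with UNC0638, each with an SE of 0.36, and GBP2 was 2.83-fold higher with both. The combined treatment differed from GSK126 by -0.25, less than its SE, and from UNC0638 by 1.92 (3.79-fold). In MM.1S the probe lay between 0.754% and 3.23% and was not well above background on any array.

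GBP3 was well above background on all 16 arrays with either of its probes, and its differences were small. With probe A_23_P51487 the RPMI-8226 levels were 16.6% and 23.9% with DMSO, 28.0% and 31.8% with GSK126, 28.8% and 29.5% with UNC0638 and 48.6% and 38.4% with both. The single inhibitors overlapped each other, lay above DMSO and lay below the combination. In MM.1S the levels were 156% and 177%, 183% and 178%, 227% and 231%, and 236% and 263% in the same order, and the groups did not overlap. The differences from DMSO were 0.59, 0.55 and 1.12 in RPMI-8226 (SE 0.22) and 0.12, 0.46 and 0.58 in MM.1S (SE 0.10), for GSK126, UNC0638 and both. The probe A_21_P0010536 gave smaller differences of 0.10, 0.20 and 0.63 in RPMI-8226 (SE 0.22). In MM.1S it gave 0.11, 0.47 and 0.24 (SE 0.11), so the probes read the same size with UNC0638 but not with both inhibitors.

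The levels with A_21_P0010536 were 9.18% and 12.5%, 11.4% and 11.6%, 10.5% and 14.5%, and 17.7% and 15.6% in RPMI-8226, for DMSO, GSK126, UNC0638 and both. In MM.1S they were 58.4% and 61.6%, 69.3% and 60.6%, 81.8% and 84.3%, and 76.2% and 65.4%. The combination stood above the other groups in RPMI-8226, and UNC0638 stood highest in MM.1S. With DMSO, GBP3 was 8.37-fold higher in MM.1S than in RPMI-8226 by the first probe and 5.59-fold by the second.

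GBP4 was well above background on all 16 arrays. In RPMI-8226 it was at 12.5% and 18.5% with DMSO, 48.3% and 41.8% with GSK126, 13.3% and 11.5% with UNC0638 and 37.3% and 42.0% with both. The 4 arrays with GSK126 lay above the 4 without it. The difference from DMSO was 1.56 with GSK126 (2.95-fold), -0.30 with UNC0638 and 1.38 with both (2.60-fold), each with an SE of 0.22. In MM.1S GBP4 was at 17.7% and 11.2%, 26.2% and 13.9%, 37.5% and 27.3%, and 49.9% and 40.7%, so DMSO and GSK126 overlapped and the combination stood highest. The differences were 0.44, 1.18 (2.27-fold) and 1.67 (3.19-fold), each with an SE of 0.37. The array of replicate 1 was above that of replicate 2 in all 4 MM.1S groups.

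GBP5, which promotes inflammasome assembly in macrophages, was well above background on 1 of 16 arrays, the UNC0638 array of replicate 2 in RPMI-8226 (10.9%). On the other 15 arrays it lay between 0.697% and 2.96%, and no difference is given.

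**Figure D2:**
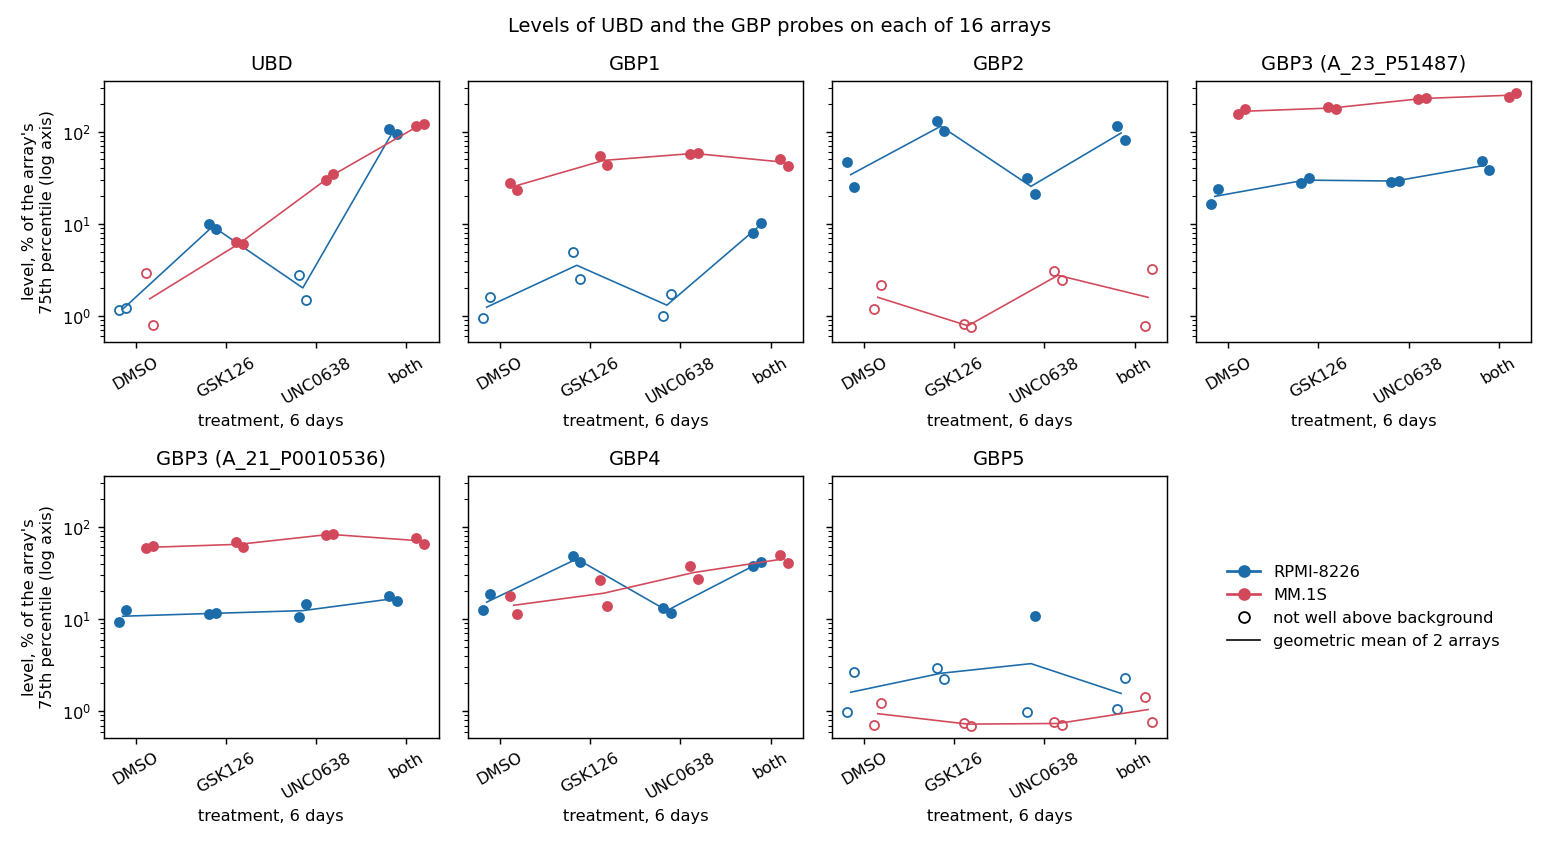
Levels of the 7 member probes on each of the 16 arrays, as percent of the 75th percentile of the array on a log axis, by cell line and treatment, with filled points well above background, open points not, and lines through the geometric mean of the 2 arrays. UBD goes from about the background to 108% and 93.5% in RPMI-8226 and to 115% and 122% in MM.1S with both inhibitors, GBP2 is read only in RPMI-8226, and GBP5 on 1 array.

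The 8 groups were ordered by mean level for each probe, and neighbours were compared where both arrays of both groups were well above background. The gap between neighbours was larger than their spread for 4 of 4 such pairs with UBD, 2 of 4 with GBP1, 1 of 3 with GBP2, 4 of 7 with GBP3 probe A_23_P51487, 2 of 7 with GBP3 probe A_21_P0010536 and 0 of 7 with GBP4. GBP5 had no such pair. Groups at the background have no order among themselves. The order mixes both lines, so neighbours can be of different lines. A count of 0 of 7 therefore does not mean that the groups of a line overlap. With GBP4 the RPMI-8226 arrays with GSK126 lay above those without it.

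The members' calls in limma (adjusted p at or below a threshold of 0.05, adjusted over all probes) are given beside the share of all probes called higher, and nothing is read from them because the same contrasts chose the members. Of the 7 probes, 6 were kept for testing in RPMI-8226 and 5 in MM.1S, because a probe had to be well above background on both arrays of a group, so a member low in DMSO could enter only through a group in which it was high. In RPMI-8226 GSK126 gave 2 calls (UBD and GBP4) beside 0.547% of all probes, UNC0638 gave 0 beside 0.556%, and the combination gave 5 beside 7.2%. At an unadjusted p of 0.05 the UNC0638 count was 2. The combination against GSK126 gave 1 call (UBD) beside 2.01%, and against UNC0638 it gave 4 beside 2.69%. In MM.1S GSK126 gave 1 call (GBP1) beside 5.19%, UNC0638 gave 4 (UBD, GBP1 and both GBP3 probes) beside 12.8%, and the combination gave 4 (UBD, GBP1, GBP3 probe A_23_P51487 and GBP4) beside 22.2%. The combination against GSK126 gave 3 beside 15.1%, and against UNC0638 it gave 0 beside 6.03%, with 1 at an unadjusted p of 0.05. All member calls were higher.

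Leaving out single arrays changed several of these counts, and the share of all probes called in those fits is not given here. The 2 calls of GSK126 in RPMI-8226 became 0 without either DMSO array or either GSK126 array and 1 without any of the other 4. The 5 calls of the combination there became 3 without DMSO replicate 1, 1 without GSK126+UNC0638 replicate 1 and 2 without GSK126+UNC0638 replicate 2, and the GBP2 call was lost without any array but DMSO replicate 1. Against UNC0638 the 4 calls became 1 without UNC0638 replicate 1 or either array of the combination and 2 without UNC0638 replicate 2, and the GBP2 call was lost without either GSK126 array too. In MM.1S the 4 calls of UNC0638 became 2 without DMSO replicate 1 or either UNC0638 array, and that of GBP3 probe A_21_P0010536 was lost without DMSO replicate 2 as well. The GBP4 call of the combination was lost without DMSO replicate 2 or GSK126+UNC0638 replicate 1. The GBP1 call of GSK126 was lost without either DMSO array, GSK126 replicate 1 or either UNC0638 array. The 3 calls of the combination against GSK126 became 1 without GSK126 replicate 2 or GSK126+UNC0638 replicate 2. Of these calls that of GBP3 probe A_23_P51487 was also lost without GSK126 replicate 1, and that of GBP4 without GSK126+UNC0638 replicate 1 or either UNC0638 array. The count of 0 for the combination against UNC0638 became 1 without either DMSO array. UBD with the combination against DMSO was called in both lines in every fit that kept its probe. The filter that asks for all arrays left it out, so it was not tested there.

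**Figure D3:**
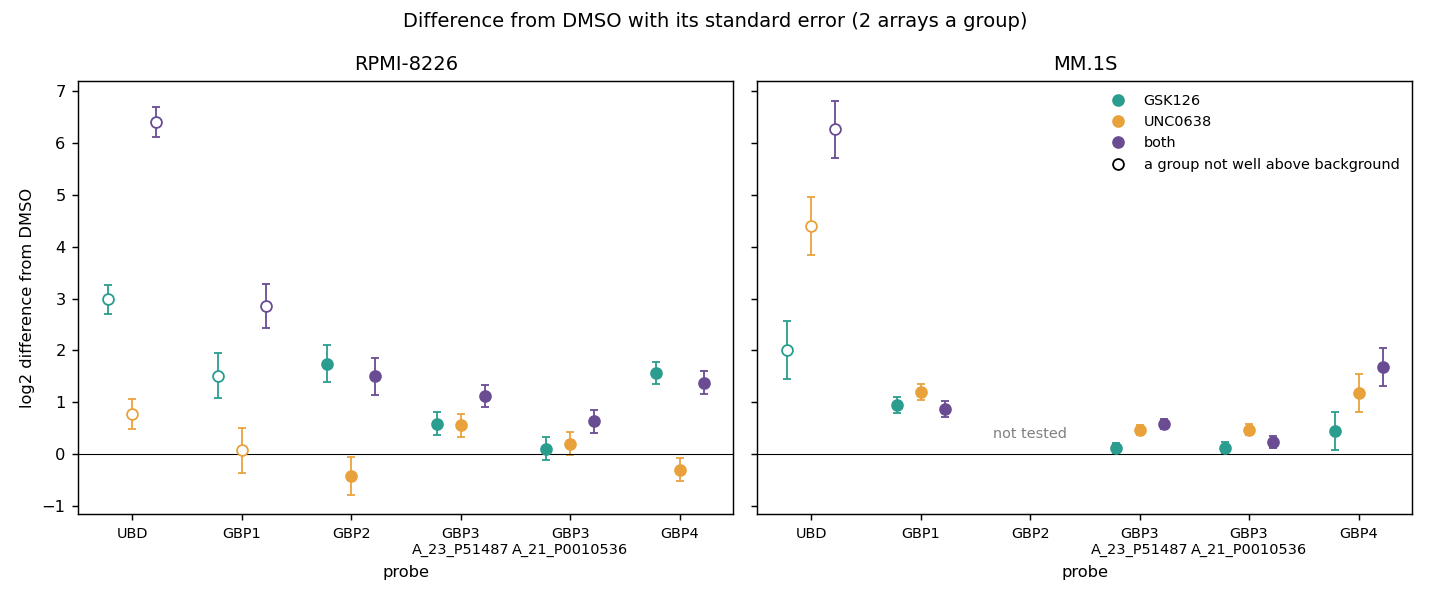
Differences from DMSO of the member probes on the log2 scale with their standard errors, for GSK126, UNC0638 and both, in each cell line. UBD lies at 6.40 and 6.27 with both inhibitors, and with UNC0638 alone it lies at 4.40 in MM.1S and 0.77 in RPMI-8226, where neither group was well above background.

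The response was also set between the lines in a fit over all 16 arrays, in which 6 member probes were kept, again as a description. For GSK126 no member differed by the threshold (0, beside 0.783% of all probes called either way, and 2 at an unadjusted p of 0.05). For UNC0638 there was 1 call beside 2.89%, UBD, whose difference was lower in RPMI-8226 than in MM.1S by a log2 value of -3.63 (SE 0.68). Of the 4 groups behind this value, DMSO and UNC0638 in RPMI-8226 and DMSO in MM.1S had no array well above background, and the value ranged from -4.58 without DMSO replicate 1 of MM.1S to -1.49 with normexp background correction. For the combination there was 1 call beside 13.3%, GBP1, with a value of 1.98 (SE 0.51) in the other direction. The UBD call was lost without DMSO replicate 2 or UNC0638 replicate 2 of RPMI-8226 or either UNC0638 array of MM.1S. The GBP1 call rests on DMSO values not above background and was lost without DMSO replicate 1 or GSK126+UNC0638 replicate 2 of RPMI-8226, or without any DMSO or GSK126+UNC0638 array of MM.1S, and with normexp background correction the value was -0.03.

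The rest of the family was not read reliably. GBP7 (1 probe), the pseudogene GBP1P1 (2 probes) and the GBP6 probe A_33_P3217437 were well above background on none of the 16 arrays. The other GBP6 probe, A_23_P130642, was well above background on all 16, with intensities between 2641 and 3839, and it shares a run of 20 bases with 8 probes of 8 other genes. Which transcripts it reads was not tested. It passed the threshold in no comparison.

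Other genes of the pathway were tested with limma, with adjustment over all probes and 1 probe per gene. Of 77 listed genes 75 were used, and 65 were kept in each line. By the same filter as for the members, a gene at the background with DMSO could be kept only through a treated group. XAF1 in RPMI-8226 and CXCL9 in MM.1S, given below as bounds, are such genes. The lists were written with earlier results of these data known, so their counts and p-values are a description. In RPMI-8226 GSK126 gave 4 genes higher and 0 lower, UNC0638 gave 1 and 1, and the combination gave 17 and 4. Over all gene symbols with 1 probe each, 0.654% were higher and 0.0498% lower with GSK126, 0.647% and 0.0685% with UNC0638, and 8.27% and 4.71% with the combination. With the replicate number as a block, which the arrays of this line bear out, the number of pathway genes called was 10 for GSK126 and 4 for UNC0638. The shares over all genes above come from the fit without the block, and no share with it is given here. In MM.1S the pathway genes were 10 higher and 1 lower with GSK126, 28 and 5 with UNC0638, and 34 and 11 with the combination. The shares over all genes there were 5.88% and 2.36%, 13.8% and 16.5%, and 23.2% and 32.2%. The median difference of the pathway genes with the combination was 0.19 in RPMI-8226 and 0.39 in MM.1S, against -0.10 and -0.11 over all genes.

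The pathway calls also depend on single arrays, again without the share of all genes called in those fits. With GSK126 in RPMI-8226 0 of the 4 calls were kept without either DMSO array or GSK126 replicate 1, 2 without GSK126 replicate 2 and 1 without either UNC0638 array. Neither call of UNC0638 there was kept whichever array was left out. With the combination, of the 21 calls 8 were kept without DMSO replicate 1, 13 without DMSO replicate 2, 11 without GSK126+UNC0638 replicate 1 and 9 without GSK126+UNC0638 replicate 2. In MM.1S, of the 11 calls of GSK126 2 were kept without either DMSO array, 1 without GSK126 replicate 1, 4 without GSK126 replicate 2 and 7 without either array of the combination. Of the 33 calls of UNC0638 21 were kept without either UNC0638 array. In all, 18 of the 28 genes higher with UNC0638 in MM.1S and 26 of the 34 higher with the combination kept their call in each of the 8 fits without 1 array, and 7 of the 17 higher with the combination in RPMI-8226 did. Where no array is named beside the value of a gene below, its call held in all 8 fits.

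**Figure D4:**
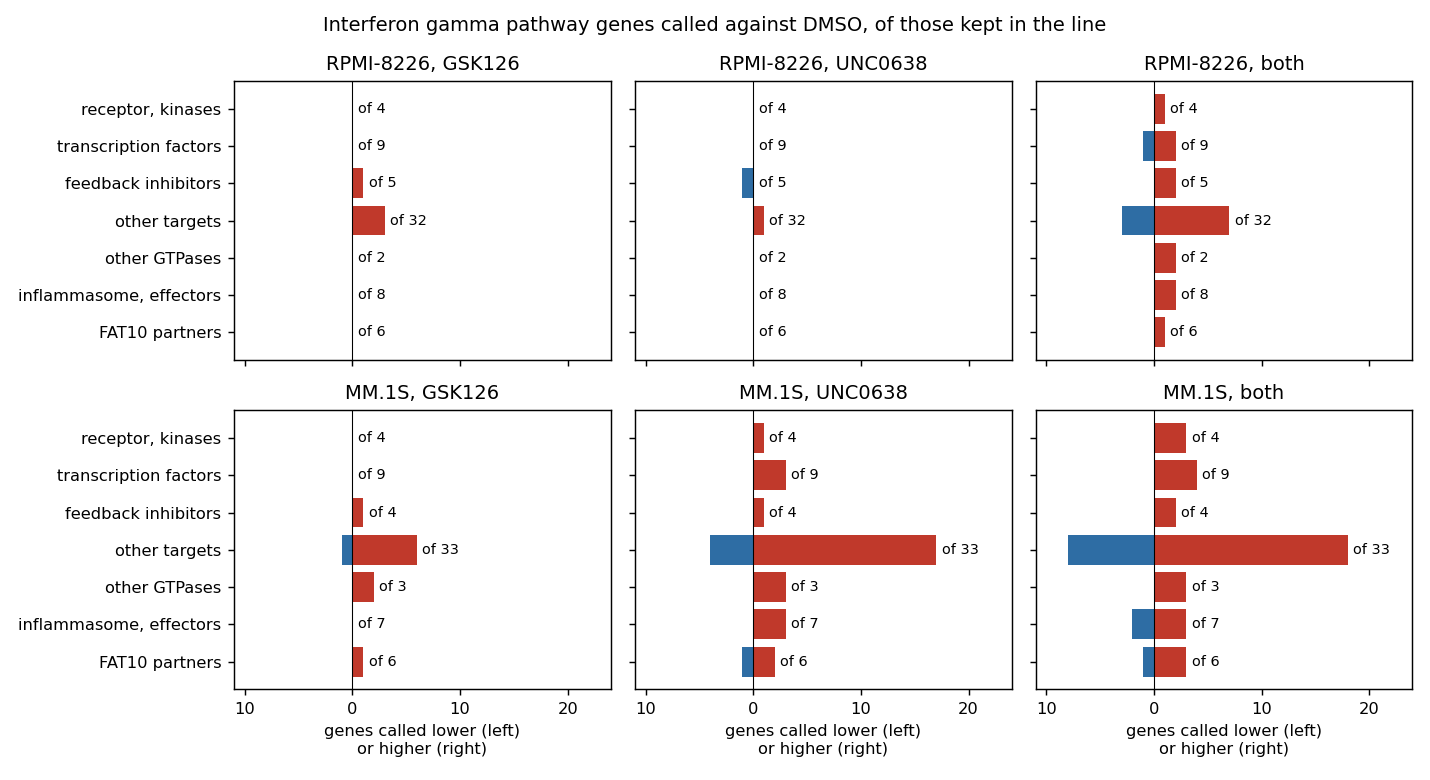
Number of listed pathway genes called higher or lower by limma in each list, for each treatment against DMSO in each cell line. In MM.1S 34 genes were higher and 11 lower with the combination, and in RPMI-8226 17 and 4. Lists can share genes, so the counts higher in the lists of MM.1S add up to more than this total.

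Ligands and receptors come first in the pathway. The interferon ligands IFNG, IFNB1 and IFNA2 were kept in neither line and were not tested, as their probes were well above background on 0 of 16 arrays. Of the receptor and kinase genes, 1 of 4 rose with the combination in RPMI-8226 and 3 of 4 in MM.1S, where the call of the kinase JAK1 was lost without DMSO replicate 2. IFNGR1, the ligand-binding chain of the receptor, rose by a log2 value of 1.29 in RPMI-8226 (SE 0.22, adjusted p = 0.0151) and by 0.94 in MM.1S (SE 0.24, adjusted p = 0.017), with the call lost in each line without DMSO replicate 1 or GSK126+UNC0638 replicate 2. The kinase JAK2 rose in MM.1S by 0.99 with UNC0638 (SE 0.15, adjusted p = 0.00753) and by 1.14 with both (SE 0.15, adjusted p = 0.00164).

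Among the transcription factors 2 of 9 rose and 1 fell with the combination in RPMI-8226, and 4 of 9 rose in MM.1S, 3 of them in all 8 fits. IRF9, a factor that binds ISRE elements, rose with the combination by 1.54 in RPMI-8226 (SE 0.18, adjusted p = 0.00398) and by 1.48 in MM.1S (SE 0.09, adjusted p = 0.000215). With UNC0638 alone it rose by 1.13 in MM.1S (SE 0.09, adjusted p = 0.00148). IRF8, a factor of B cell and myeloid development, fell by 1.13 with the combination in RPMI-8226 (SE 0.16, adjusted p = 0.00783). IRF1 and CIITA, the regulators that interferon gamma induces early and for class II antigen presentation, passed in no comparison. With the combination IRF1 was at 0.06 in RPMI-8226 (adjusted p = 0.873) and 0.39 in MM.1S (adjusted p = 0.0607), and CIITA was at 0.74 (adjusted p = 0.369) and -0.33 (adjusted p = 0.187).

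Of the feedback inhibitors, 2 of 5 rose with the combination in RPMI-8226 and 2 of 4 in MM.1S. None of those in RPMI-8226 and 1 of those in MM.1S held in all 8 fits. USP18, which removes ISG15 from proteins and dampens type I interferon signalling, rose in MM.1S by 1.54 with UNC0638 (SE 0.11, adjusted p = 0.00102) and by 2.09 with both (SE 0.11, adjusted p = 0.000144). SOCS1, the main inhibitor of JAK kinases in this pathway, rose in MM.1S by 1.06 with both (SE 0.25, adjusted p = 0.0133), a call lost without DMSO replicate 2 or GSK126+UNC0638 replicate 2, and stood at -0.21 in RPMI-8226 (adjusted p = 0.713).

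Other interferon gamma targets were the largest list. With the combination 7 of 32 rose and 3 fell in RPMI-8226, and 18 of 33 rose and 8 fell in MM.1S. Of these calls 4 higher and 0 lower in RPMI-8226, and 15 higher and 6 lower in MM.1S, held in all 8 fits. The falls also depend on the scaling. With the percentile taken over probes detected on all arrays, none of the 3 in RPMI-8226 (ICAM1, IFI30 and SECTM1) kept its call, and LAP3 and TAP2 lost theirs in MM.1S. PSMB10 lost its call there with quantile normalization. The chemokine CXCL9, which draws T cells and is a classical interferon gamma target, rose with the combination by 4.03 in RPMI-8226 (SE 0.26, adjusted p = 0.000541) and was at least 4.85-fold higher in MM.1S (adjusted p = 0.000737). CXCL10, a chemokine of the same receptor, rose by 2.80 (adjusted p = 0.001) and 1.03 (adjusted p = 0.00721). XAF1, a pro-apoptotic antagonist of XIAP, was at least 11.2-fold higher in RPMI-8226 (adjusted p = 0.000582) and rose by 6.12 in MM.1S (SE 0.55, adjusted p = 0.000487). In MM.1S it also rose by 4.99 with UNC0638 alone (SE 0.55, adjusted p = 0.00325). Its MM.1S DMSO level was 4.50% and 1.27%, well above background only on the array of replicate 1, and these sizes move with it. The value with both was 7.03 without DMSO replicate 1 and 5.20 without DMSO replicate 2, and with UNC0638 it was 5.90 and 4.08. The genes that fell in MM.1S were WARS, IL15RA, SECTM1, LAP3, PSMB10, PSME1, PSME2 and TAP2. The call of LAP3 was lost without either DMSO array or GSK126+UNC0638 replicate 1, and that of TAP2 without any DMSO or GSK126+UNC0638 array. Of these WARS, a tryptophanyl-tRNA synthetase, fell by 1.45 (adjusted p = 0.000494) and IL15RA, a chain of the interleukin 15 receptor, by 1.20 (adjusted p = 0.000392).

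Other interferon-induced GTPases rose with the combination in 2 of 2 kept genes in RPMI-8226 and 3 of 3 in MM.1S. The MX2 call in RPMI-8226 was lost whichever of the 8 arrays was left out, so neither gene of that line held in all 8 fits. MX1, a dynamin-like antiviral GTPase, rose in MM.1S by 2.19 with UNC0638 (adjusted p = 0.000828) and by 3.20 with both (adjusted p = 0.000103). In RPMI-8226 it rose by 2.67 with both (SE 0.45, adjusted p = 0.015), a call lost without DMSO replicate 1 or GSK126+UNC0638 replicate 2. GVINP1, a pseudogene of the very large interferon-induced GTPases, rose by 1.19 in MM.1S (adjusted p = 0.000779).

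The partners of FAT10 were also measured. The activating enzyme UBA6 and the autophagy receptor SQSTM1 passed in neither line against DMSO. NUB1, which binds FAT10 and speeds its degradation, rose with the combination by 1.88 in RPMI-8226 (SE 0.21, adjusted p = 0.00354) and by 1.33 in MM.1S (SE 0.11, adjusted p = 0.000425), and by 1.03 with UNC0638 in MM.1S (adjusted p = 0.00318). MAD2L1, a spindle checkpoint protein that FAT10 binds, fell by 1.03 in MM.1S with both (SE 0.13, adjusted p = 0.00119). HDAC6, which carries FAT10 to aggresomes, rose by 0.56 (SE 0.10, adjusted p = 0.00401). In all 1 of 6 partners rose in RPMI-8226, and 3 rose and 1 fell in MM.1S, where the call of the third gene that rose, UBE2Z, the FAT10-conjugating enzyme, held in 2 of 8 fits. It was lost without DMSO replicate 1, GSK126+UNC0638 replicate 2 or any single-inhibitor array.

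Inflammasome and effector genes linked to guanylate-binding proteins were 2 of 8 higher with the combination in RPMI-8226, and 3 of 7 higher and 2 lower in MM.1S. In RPMI-8226 these were AIM2, a DNA sensor (1.45), and NLRP3, a sensor of cell damage (3.15). The NLRP3 value rests on the DMSO arrays, as it became 4.31 when replicate 2 was left out and was lower than 3.15 by over 1 log2 unit when replicate 1 was. The AIM2 call held in 2 of 8 fits and was lost without any array of DMSO, GSK126 or both, and the NLRP3 call held in 1 of 8, that without DMSO replicate 2. In MM.1S the higher ones were CASP1 (0.75, adjusted p = 0.00106), CASP5 (0.99, adjusted p = 0.00129) and CASP4 (0.82, adjusted p = 0.0103), the inflammatory caspases. The call of CASP4 was lost without DMSO replicate 1. YWHAE, a 14-3-3 protein, fell by 0.39 (adjusted p = 0.0089), and the call of the other gene that fell, PIM1, held in 1 of 8 fits, that without GSK126+UNC0638 replicate 1. Both of these falls lost their call with the percentile over probes detected on all arrays.

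For the 4 members kept in both lines, the 3 gene symbols whose pattern was most like theirs were taken by Pearson's r over the 8 group means centred on the mean of each line, among 14838 candidates. For UBD they were CD63 (r = 0.996), XLOC_000746 (0.994) and DNAJB5 (0.991), and 522 candidates had r above 0.9. For GBP1 they were STK3 (0.990), PON3 (0.977) and SDC4 (0.975), and 165 candidates did so. For GBP3 they were RAB32 (0.998), C10orf58 (0.993) and TFEC (0.992), with 381 above 0.9, and for GBP4 they were IL15 (0.990), TRIM3 (0.989) and STAT3 (0.983), with 175. Over so few groups, which share the arrays, a high r is common and is a description only.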

How the data were processed

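Gene expression was measured in 16 samples on Agilent 1-colour arrays. The authors deposited the output of Agilent Feature Extraction (version 10.7, per the submitters' processing notes), in which each spot has a background-subtracted intensity on a linear scale, not normalized between arrays. Control spots (4259) and outlier spots were left out, log2 values were centred on the 75th percentile of the array, spots of the same probe were averaged, and a probe was kept in a line if both arrays of 1 or more of its groups read it well above background (23199 in RPMI-8226 and 25102 in MM.1S). limma (version 3.58.1, R 4.3.3) was fitted with lmFit and eBayes over the 8 arrays of a line, or over all 16 arrays for differences between lines, with Benjamini-Hochberg adjustment. The fits were tested on simulated data. The number of arrays, 2 per group, limits the precision. For a gene with several probes the probe with the highest mean was used. Of the listed genes IFNA1, FCGR1A and LYZ were not used here.

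The members and the gene lists were chosen with earlier results of these data known. Named pathway genes are at most the 4 with the largest called change in each direction per list and comparison. IRF1, SOCS1 and CIITA are among those named whatever their values. Some listed genes are not reported here. Beyond that rule, the ligands, UBA6, SQSTM1, LAP3, PSMB10, PSME1, TAP2 and genes named for a call that 1 array or the scaling decides were named after their values were seen.

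In RPMI-8226 the deviations of same-numbered arrays from the means of their groups correlated in 6 of 6 pairs (r between 0.254 and 0.415 across probes), so the labels' numbers were read as pairing the samples. The main fits leave this pairing out, and only the alternative with the replicate block includes it. In MM.1S cells the correlations were 0.0847 to 0.225, over 0.1 in 5 of 6 pairs, and the numbers were not read as pairing. In both lines the numbers also follow the row of the slide, so number and row cannot be told apart. The alternatives tried were quantile normalization, a percentile over probes detected on all arrays, normexp background correction (offset 50), dropping the filter, requiring all arrays to pass it, the deposited series table, the replicate block, an intensity-dependent prior variance, outlier spots kept, 1 fit over all 16 arrays and each array left out.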

Additional observations from a re-analysis of the deposited data

Results flagged for a closer look

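The response of UBD to UNC0638 differed between the lines in the fit over all 16 arrays, with a log2 difference from DMSO that was lower in RPMI-8226 than in MM.1S cells by a value of -3.63 (0.77 against 4.40). Over the 24 alternatives the value ranged from -4.58 to -1.49, the latter with normexp background correction, and DMSO and UNC0638 in RPMI-8226 and DMSO in MM.1S had no array well above background. The response of GBP1 to the combined treatment differed the other way, by 1.98 (2.86 in RPMI-8226 cells against 0.87 in MM.1S cells), with a range from -0.03 with normexp to 2.36 over the 24 alternatives and the call lost in 9 of them. Both are differences between groups of probes chosen with these values known, and both rest on RPMI-8226 DMSO arrays on which the probe was not well above background. The line cannot be told apart from the slide.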

How the results depend on the processing

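Of the recomputed values of the report's main results, 268 were classed as the same and 95 as moved. Among the members' log2 differences from DMSO, 561 recomputed values moved by less than the spread between replicates and 24 by more. The spread was the larger standard deviation of the 2 groups. Leaving out 1 array of a group of 2 cannot move a value beyond this spread. The filters, the replicate block, the prior variance and the 1 fit over all arrays leave the value as it was. The 561 were therefore largely fixed in advance and say little about stability. No called difference from DMSO changed sign. Among those not called, 5 changed sign. In RPMI-8226 cells these were GBP1 with UNC0638 (0.07 in the report, down to -0.33 without UNC0638 replicate 2), GBP2 with UNC0638 (-0.42, up to 0.03 without DMSO replicate 1) and GBP3 probe A_21_P0010536 with GSK126 (0.10, down to -0.12 without DMSO replicate 1) and UNC0638 (0.20, down to -0.03 without UNC0638 replicate 2). In MM.1S cells it was GBP4 with GSK126 (0.44, -0.02 without GSK126 replicate 1). The GBP1 difference between the lines went from 1.98 to -0.03 with normexp. UBD with the combination against DMSO was called in both lines in each setting that kept its probe, and the filter for all arrays left it untested.

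The counts of member probes called in RPMI-8226 cells moved as follows. GSK126 (2) gave 1 with quantile normalization, 1 with a percentile over probes detected on all arrays, 1 with normexp, 0 with no filter and 1 with a filter for all arrays. The combination (5) gave 3 with no filter and 3 with the filter for all arrays. Against GSK126 (1) it gave 0 with that filter and 2 in 1 fit over all arrays, and against UNC0638 (4) it gave 2 with quantile normalization and 2 with that filter. In MM.1S cells GSK126 (1) gave 0 with no filter and 2 with an intensity-dependent prior variance, UNC0638 (4) gave 2 with no filter, the combination against GSK126 (3) gave 1 with no filter, and against UNC0638 (0) it gave 1 with normexp, 1 with that prior variance and 1 in 1 fit over all arrays. For differences between the lines GSK126 (0) gave 1 with normexp, UNC0638 (1) gave 2 with normexp and 0 with the filter for all arrays, and the combination (1) gave 0 with quantile normalization, no filter or the filter for all arrays. The filters change which probes are tested, and otherwise the cause was not tested. The share of all probes called under each setting is not given, here or in the paragraphs below. Whether the listed genes or all probes moved therefore cannot be told from these counts.

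Pathway genes called in RPMI-8226 cells were, for GSK126 (4), 1 with no filter and 12 in 1 fit over all arrays, for UNC0638 (2), 1 with normexp, 0 with no filter and 4 in 1 fit over all arrays, and for the combination (21), 13 with no filter and 32 in 1 fit over all arrays. In MM.1S cells they were, for GSK126 (11), 1 with no filter and 21 with the intensity-dependent prior variance, and for UNC0638 (33), 21 in 1 fit over all arrays. With the percentile over probes detected on all arrays, which moved the median of all probes with the combination from -0.13 to 0.00 in RPMI-8226 and from -0.12 to 0.07 in MM.1S cells, the pathway genes higher and lower were 20 and 1, and 39 and 7.

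With the replicate block, which pairs the samples in RPMI-8226 cells, the pathway genes called were 10 for GSK126 and 4 for UNC0638, and the member probes called for the UNC0638 difference between the lines were 2. The replicate block moved no other count by over 1.5 times.

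With each array left out in turn, the member probes called ranged in RPMI-8226 cells from 0 to 1 for GSK126, 1 to 4 for the combination, and 1 to 4 for the combination against UNC0638. In MM.1S cells they ranged from 0 to 1 for GSK126, 2 to 5 for UNC0638, 1 to 3 for the combination against GSK126 and 0 to 1 against UNC0638. For differences between the lines they ranged from 0 to 1 for UNC0638 and 0 to 2 for the combination. The pathway genes called ranged in RPMI-8226 cells from 0 to 3 for GSK126, 0 to 1 for UNC0638 and 8 to 17 for the combination, and in MM.1S cells from 1 to 8 for GSK126 and 21 to 35 for UNC0638. Signal over background limits UBD, GBP1 and GBP2 in the groups named as not well above it, and GBP5 throughout.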
